A study of Mus musculus with 4 samples.

Results

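Of 32285 genes counted in single bone marrow cells, 8 genes of the precursor B cell receptor and of antigen receptor recombination are described here. They were taken by symbol from the gene features of the deposited count matrices: Vpreb1 and Igll1, which encode the surrogate light chain, Vpreb3, Cd79a and Cd79b, which encode the paired signalling chains of the receptor, Blnk, which encodes an adaptor protein, and Rag1 and Rag2, which encode the recombinase. All 8 were found in each of 4 libraries.

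RNA and antibody tags were counted together in Kit+ cells that carried CD45.2, taken from mouse bone marrow 10 weeks after a transplantation. Kit is the stem cell factor receptor, found on early blood cells. The CD45.2 allele of the pan-leukocyte antigen CD45 is commonly used to follow donor cells in a transplant. The 4 groups were control (library name wt), Mll3SI (mll3KI), Mll4SI (mll4KI) and Mll3/4SI (dKI), with 1 library each. The labels do not spell out SI or KI, and do not give the strain, sex, number of animals, cell dose or the meaning of the 2 hashtag antibodies. Kmt2c encodes MLL3 and Kmt2d encodes MLL4, both enzymes that methylate histone H3, and the title of the series names B cell priming as one of its subjects.

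A B cell precursor first joins gene segments of the immunoglobulin heavy chain with the RAG1 and RAG2 recombinase. The heavy chain then pairs with the surrogate light chain, made of the VPREB1 and λ5 (Igll1) proteins, and reaches the surface with CD79A and CD79B as the pre-B cell receptor. The CD79 tails recruit the kinase SYK, BLNK links that kinase to downstream enzymes, and a burst of division follows before the light chain genes are recombined. VPREB3 is a related protein of B cell precursors that binds immunoglobulin chains inside the cell. In textbook accounts E2A, EBF1 and Ikaros are transcription factors that bind control regions of several of these genes.

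On mouse build GRCm38, in the GENCODE M21 annotation, Vpreb1 lies on chromosome 16 (16868403 to 16870843, minus strand) and Igll1 on the same strand (16860671 to 16863985), 4417 bases away. Rag1 (101638282 to 101649501, minus strand) and Rag2 (101624718 to 101632529, plus strand) lie 5752 bases apart on chromosome 2. Cd79a lies on chromosome 7 (24897381 to 24902197, plus strand), Cd79b on chromosome 11 (106311341 to 106314762, minus strand), Vpreb3 on chromosome 10 (75943057 to 75949657, plus strand) and Blnk on chromosome 19 (40928927 to 40994535, minus strand). The values below are totals over a gene, so they do not tell its transcripts apart.

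The 250 bases before the start of 3 members that were often detected in the same cells are printed 5′ to 3′ on the strand of the gene, because they show the motif that most members shared. They come from RefSeq (GRCm38.p6), whose Vpreb1 and Cd79a starts differ from those of GENCODE, so that the Vpreb1 window lies inside the GENCODE span and the Cd79a window runs into it. In RefSeq 7 of the 8 members had such a window and Cd79b was not matched. Capitals mark the E2A motif, in either orientation.
Vpreb1, chr16:16869256-16869505, minus strand: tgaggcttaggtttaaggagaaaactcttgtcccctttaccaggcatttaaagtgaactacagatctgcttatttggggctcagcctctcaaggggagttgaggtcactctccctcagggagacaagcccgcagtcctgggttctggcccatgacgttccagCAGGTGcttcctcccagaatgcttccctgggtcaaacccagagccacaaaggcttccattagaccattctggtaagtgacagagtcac
Igll1, chr16:16863986-16864235, minus strand: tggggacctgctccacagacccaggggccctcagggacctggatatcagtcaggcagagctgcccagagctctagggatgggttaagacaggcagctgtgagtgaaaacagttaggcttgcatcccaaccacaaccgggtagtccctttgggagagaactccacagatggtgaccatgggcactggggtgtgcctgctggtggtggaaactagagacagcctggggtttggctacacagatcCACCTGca
Cd79a, chr7:24897247-24897496, plus strand: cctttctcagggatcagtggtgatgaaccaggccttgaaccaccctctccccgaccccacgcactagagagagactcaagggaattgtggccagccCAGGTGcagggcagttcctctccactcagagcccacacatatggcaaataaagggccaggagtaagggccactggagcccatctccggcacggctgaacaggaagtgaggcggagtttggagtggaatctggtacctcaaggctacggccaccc
Both strands of these windows were searched. The E2A motif CAGGTG was found in 5 of 7 members (Vpreb1, Igll1, Cd79a, Blnk and Rag1), and in 17.1% of 27025 promoter windows of the same length. Its first base lay 88 bases upstream in Vpreb1, 154 in Cd79a, and 8, on the opposite strand, in Igll1. The EBF1 motif, TCCC and GGGA with 2 bases of any kind between them, which reads the same on both strands, was in 0 of 7 members and 0.788% of all windows. The Ikaros motif TGGGAA was in 1 of 7 members (Rag1) and 21.5% of all windows. A match is a run of letters and not a measured site. Only exact matches to these letters were sought, so a count of 0 does not show that a window lacks a site.

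The libraries held 7524 to 11678 cell barcodes and 140546094 to 177753607 gene UMIs (unique molecular identifiers, each standing for 1 captured RNA molecule). After filtering, 6743 control, 8023 Mll3SI, 10186 Mll4SI and 6755 Mll3/4SI cells were kept, and pairs of libraries shared 16 to 29 barcodes. Kmt2c stood at 129.5, 110, 148 and 123 CPM over all kept cells (CPM is a gene's UMIs divided by all gene UMIs of the cells summed, times 1000000) and Kmt2d at 41.5, 38.0, 35.0 and 33.3, in the order control, Mll3SI, Mll4SI, Mll3/4SI, which is kept below. Those totals do not check the labels, since a change of sequence need not change a transcript's level. Xist stood at 1149 CPM in Mll4SI and 1358 in Mll3/4SI, against 0.0315 for control and 0.194 for Mll3SI, and the Y-linked Eif2s3y was at 0 UMIs in the libraries where Xist was high. In comparisons of Mll4SI or Mll3/4SI with control, sex and group therefore cannot be told apart. With 1 library per group no difference has a replicate check. The 95% intervals given in brackets cover counting error only.

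Classes were named from marker genes that left out the 8 members. The B-lymphoid-like class held 65, 183, 39 and 38 cells, which was 0.964%, 2.28%, 0.383% and 0.563% of the kept cells. The share also differed between the hashtags within a library, at 1.25%, 3.72%, 0.433% and 1.06% of Hashtag1 and 0.717%, 1.20%, 0.359% and 0.165% of Hashtag2 cells. All 8 members were at high levels there in every library. The 11 B-lymphoid markers, which gave the class its name, summed to 6820, 7515, 6815 and 8141 CPM against 14.3 to 55.9 in HSC/MPP-like cells. Ebf1 stood at 4864, 5396, 4603 and 5976 CPM and Pax5 at 422, 398, 487 and 413, and both encode transcription factors that set B cell identity. Ms4a1, a gene of later B cells, had 0, 1, 2 and 0 UMIs. The B220 antibody, which marks B lineage cells, had a median of 260, 208, 232 and 327 tags per B-lymphoid-like cell against 19 to 31 in cells of the stem and multipotent progenitor class (HSC/MPP-like). The CD127 antibody, against the IL-7 receptor, had 65, 61, 88 and 74.5 tags against 3 to 7. The sorting marker itself was low, since Kit RNA stood at 27.0, 28.9, 47.7 and 23.8 CPM against 205 to 235 in HSC/MPP-like cells, and the CD117 (Kit) antibody at medians of 60, 47, 56 and 49.5 tags against 297 to 325. The Kit+ sort sets what share of B cell precursors is seen, so shares of cells here are not shares of the marrow.

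The surrogate light chain genes were the most abundant members beside Vpreb3 in B-lymphoid-like cells. Vpreb1 stood at 2029, 1985, 1807 and 1607 CPM. Igll1 stood at 1158, 1252, 1079.6 and 1026 CPM. Vpreb3 stood at 2112, 2325, 1800.3 and 2358 CPM. Over these 3 genes the ratio to control ran from 0.792 to 1.12. Vpreb1 to control was 0.978 (0.931 to 1.03) for Mll3SI, 0.890 (0.829 to 0.956) for Mll4SI and 0.792 (0.736 to 0.852) for Mll3/4SI, so that the interval left out equality in Mll4SI and Mll3/4SI. Igll1 to control was 1.08 (1.01 to 1.15), 0.933 (0.850 to 1.02) and 0.886 (0.807 to 0.972). The partners of the surrogate light chain kept a narrow ratio: 1.75, 1.58, 1.67 and 1.57 UMIs of Vpreb1 for each UMI of Igll1. Vpreb3 was higher relative to Vpreb1 in Mll3/4SI, with 1.47 (1.36 to 1.59) UMIs per Vpreb1 UMI against 1.04 (0.983 to 1.10) in control. In Mll3SI that ratio was 1.17 (1.13 to 1.22).

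Part of the Vpreb1 signal cannot be separated from Vpreb2, a near copy of the gene on the same chromosome (17980428 to 17981273, plus strand). Their longest transcripts matched at 625 of 726 aligned bases (86.1%), and the last 200 bases, which 3′ sequencing reads, matched at 153 of 158 aligned bases. Vpreb2 stood at 347, 270, 177 and 247 CPM in B-lymphoid-like cells. How reads were divided between the pair was not given in the sources used here, so the Vpreb1 and Vpreb2 values are uncertain.

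The signalling chains were lower than the surrogate light chain genes. Cd79a stood at 878, 745, 635 and 839 CPM in B-lymphoid-like cells. Cd79b stood at 318, 293, 208 and 361 CPM. Both were lowest in Mll4SI. The ratio to control there was 0.723 (0.643 to 0.811) for Cd79a and 0.654 (0.533 to 0.799) for Cd79b, while in Mll3/4SI the intervals of both included equality (0.860 to 1.06 and 0.962 to 1.34). Blnk, the adaptor, stood at 497, 563, 460.5 and 677 CPM and was highest in Mll3/4SI, at 1.36 (1.20 to 1.54) times control. Its Mll4SI ratio of 0.927 (0.804 to 1.07) covers a split between the clusters of the class that is given further on.

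The recombinase genes were the scarcest members. Rag1 stood at 109, 134, 53.9 and 99.6 CPM. These levels rest on 125, 320, 35 and 67 UMIs. Mll4SI was the low library, at 0.495 (0.330 to 0.725) of control, which is a log2 ratio of CPM + 1 of -1.001. Over 12 other settings of the processing that ratio ran from -1.35 to -0.87. The highest single cell held 4 of its 35 UMIs. Rag2 stood at 99.3, 95.5, 86.2 and 117 CPM, and its ratio in Mll4SI was 0.868 (0.619 to 1.21). In B-lymphoid-like cells 0.912, 0.713, 1.6 and 1.18 UMIs of Rag2 were counted per UMI of Rag1. The interval of that ratio in Mll4SI (1.03 to 2.52) overlapped that of control (0.701 to 1.19).

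**Figure D1:**
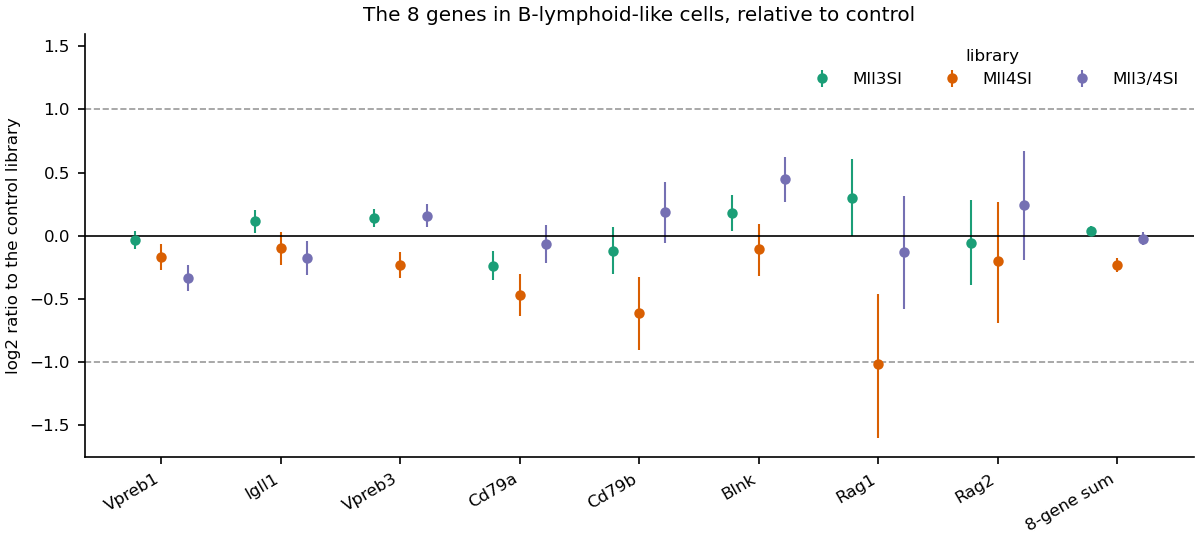
Log2 ratio to the control library of each of the 8 genes and of their sum in B-lymphoid-like cells (vertical axis), for Mll3SI, Mll4SI and Mll3/4SI (colours). Bars are 95% intervals of the counts alone, with 1 library per group, and dashed lines mark a ratio of 2 in either direction. Rag1 in Mll4SI, at -1.01, is the only point at a dashed line.

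A gene was called past the fold where the log2 ratio of CPM + 1 reached 1 in size, among 12122 genes with a mean of at least 1 CPM in B-lymphoid-like cells. In Mll3SI 0 of 8 members were past it, where 3.91% of genes were past it as higher and 3.63% as lower. In Mll4SI 0 members were past it as higher (8.32% of genes) and 1, Rag1, as lower (8.54% of genes). In Mll3/4SI 0 of 8 were past it in either direction (8.18% higher and 7.99% lower). With 8 members, a single call is near that background. The median log2 ratio of the members was 0.04, -0.22 and 0.05 for Mll3SI, Mll4SI and Mll3/4SI, beside 0.01 for all genes in each of the 3 comparisons, which share the control library. All 8 members had their point value below control in Mll4SI. The intervals of 5 of them (Cd79a, Cd79b, Vpreb1, Vpreb3 and Rag1) left out equality. The matching shares of all genes are not given here, so these counts are not a result about the members. Vpreb1 lay above control after thinning (log2 ratio of CPM + 1 of 0.15). Blnk lay above it as a mean over cells (0.08) and in the smaller-cell cluster (0.54). In Hashtag2 cells Vpreb1 (2046 against 2022 CPM) and Igll1 (1197 against 1168 CPM) lay above control. In Hashtag1 cells both lay below it. The 8 genes summed to 7199, 7393, 6129 and 7086 CPM. The sum to control was 1.03 (1.0 to 1.05), 0.851 (0.820 to 0.884) and 0.984 (0.95 to 1.02). Granulocyte RNA was higher in the B-lymphoid-like cells of Mll4SI and Mll3/4SI than in those of control and Mll3SI. The 12 granulocyte markers, all 12 with a UMI in control, Mll3SI and Mll4SI and 11 (Ly6g at 0) in Mll3/4SI, summed to 2890, 987, 6839 and 7295 CPM in B-lymphoid-like cells. S100a8, a granulocyte gene, made up 1146, 306, 2789 and 3420 CPM of these sums. The part of that RNA in the member levels was not tested. Fewer receptor-bearing cells in the class and less RNA per cell cannot be told apart in these sums.

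**Figure D2:**
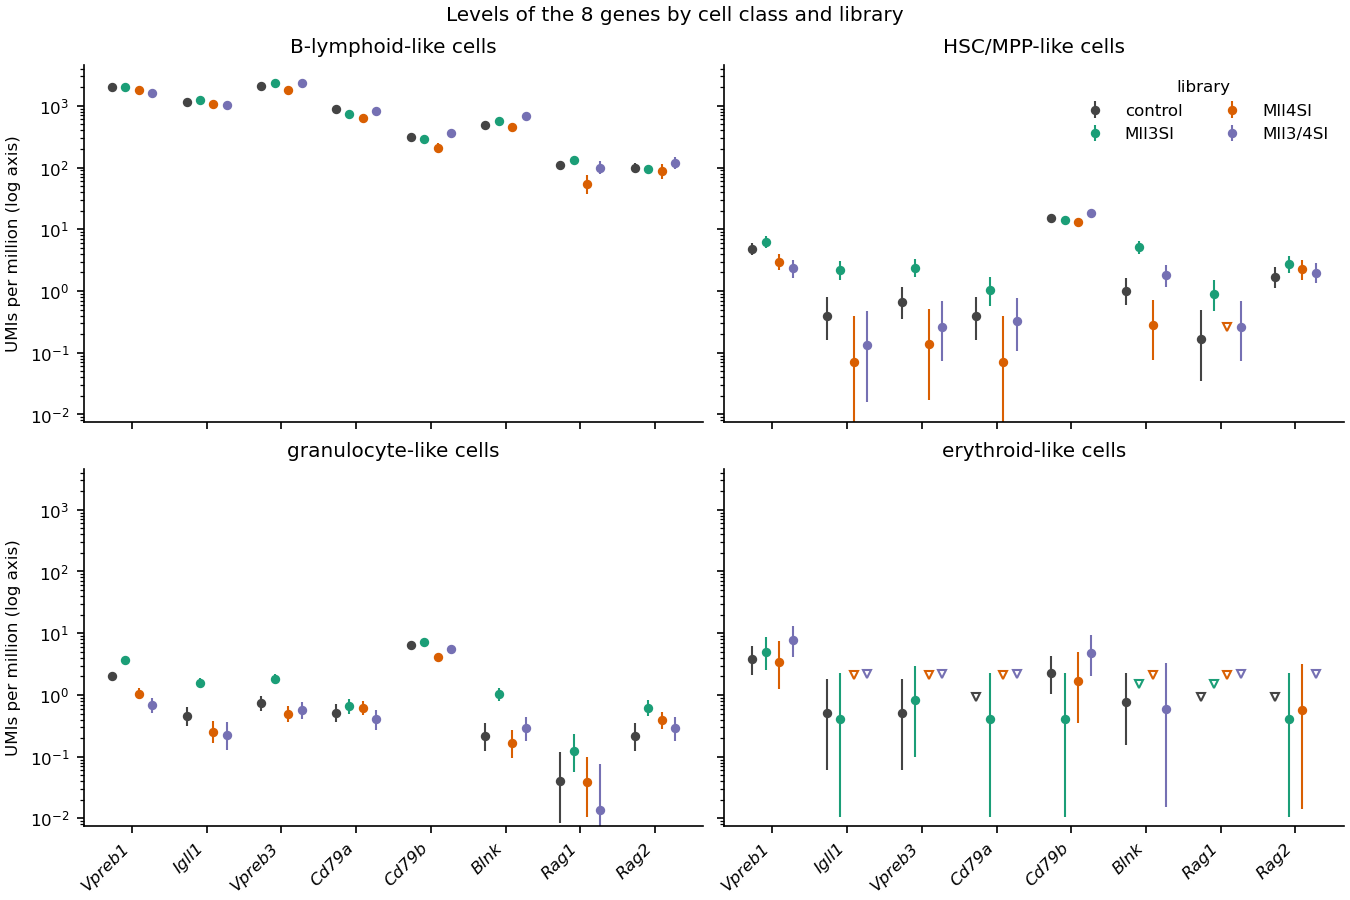
Level of each of the 8 genes (CPM, log axis) in B-lymphoid-like, HSC/MPP-like, granulocyte-like and erythroid-like cells, by library (colours). Bars are 95% Poisson intervals and open triangles are upper limits where no UMI was counted. Every member lies above 50 CPM in B-lymphoid-like cells, and Cd79b is the highest in HSC/MPP-like cells in all 4 libraries.

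To compare single cells at one depth, each cell was thinned to 3000 gene UMIs, which left 61, 169, 34 and 36 B-lymphoid-like cells and left out 4, 14, 5 and 2 shallower ones. Vpreb1 was detected in 98.4%, 97.6%, 97.1% and 91.7% of these cells and Igll1 in 91.8%, 94.1%, 94.1% and 97.2%. Rag1 was detected in 24.6% (14.5 to 37.3), 36.1% (28.9 to 43.8), 17.6% (6.76 to 34.5) and 27.8% (14.2 to 45.2) of thinned cells. The unthinned Rag1 shares were 60%, 62.3%, 43.6% and 71.1%, at median depths of 17839, 12057, 16588 and 16422 UMIs per cell. The Rag1 intervals of the 4 libraries overlapped one another. In erythroid-like cells, which should lack these genes, no Rag1 UMI was found in 122, 107, 52 and 51 cells. A count of 0 allows a Rag1 UMI in up to 2.46%, 2.80%, 5.77% and 5.88% of such cells (3 cells), and does not limit the share of cells that express it.

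Several members were often detected in the same B-lymphoid-like cell. Of 300 thinned B-lymphoid-like cells over the 4 libraries, 275 (91.7%) had a UMI of both Vpreb1 and Igll1, and 157 (52.3%) of both Cd79a and Cd79b. Cd79a was seen in 87.7% (82.0 to 92.1) of cells with Cd79b and 83.5% (75.6 to 89.6) of cells without it, so the intervals overlapped. Rag1 and Rag2 were both seen in 34 cells (11.3%), with Rag1 in 92 and Rag2 in 77. In the pooled cells Rag1 was seen in 44.2% (32.8 to 55.9) of cells with Rag2 and 26.0% (20.4 to 32.3) of cells without it. In Mll4SI alone the shares went the other way, at 12.5% and 19.2%. At least 3 of the 8 members were seen in 100%, 97.6%, 100% and 100% of thinned B-lymphoid-like cells. In HSC/MPP-like cells this held for 1 of 752, 1 of 792, 0 of 616 and 0 of 709, and in erythroid-like cells for none in any library. At this thinned depth the zeros allow up to 0.487% of HSC/MPP-like cells in Mll4SI and 0.423% in Mll3/4SI to have UMIs of 3 members.

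Recombinase RNA was set beside that of the division genes Mki67 and Top2a. Rag1 or Rag2 was detected in 110 of 261 thinned cells that had a UMI of either division gene (42.1%, 36.1 to 48.4), and in 25 of 39 that had none (64.1%, 47.2 to 78.8). The shares with and without division gene UMIs were 32.1% and 62.5% (control), 47.7% and 61.1% (Mll3SI), 34.5% and 60% (Mll4SI), and 39.3% and 75% (Mll3/4SI). The share was lower beside division gene UMIs in 4 of 4 libraries, but the cells without such UMIs numbered only 8, 18, 5 and 8, and the intervals overlapped within every library and in the pooled cells.

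The B-lymphoid-like class consisted of a cluster of larger cells (35, 109, 19 and 23 cells, median 21480, 14240, 19073 and 20184 UMIs) and a cluster of smaller cells (30, 74, 20 and 15 cells, median 10827, 9474, 11739 and 5407 UMIs). The 8 members took no part in the clustering. Their comparison between the clusters was chosen after the data were seen. Rag1 was higher in the smaller-cell cluster in every library, by 2.83 (1.96 to 4.10), 2.09 (1.67 to 2.62), 2.66 (1.29 to 5.66) and 2.08 (1.23 to 3.47) times. Rag2 was higher by 2.74 (1.86 to 4.03), 1.42 (1.07 to 1.86), 2.55 (1.45 to 4.55) and 1.12 (0.652 to 1.86) times, so that the interval included equality in Mll3/4SI. Top2a, which encodes a topoisomerase of dividing cells, went the other way, at 0.436, 0.461, 0.645 and 0.501 times. Unlike the members, Mki67 and Top2a were not left out of the genes open to the clustering. Their difference between the clusters is therefore not independent of how the clusters were made. The other members differed less, with Vpreb1 at 1.14 to 1.41 times, Igll1 at 1.22 to 1.27 times and Vpreb3 at 1.19 to 1.37 times over the libraries. Of the 8 members 7 were higher in the smaller-cell cluster in all 4 libraries, Cd79a in 3, while 14.6% of 8076 genes with a mean of at least 10 CPM were higher in all 4. Blnk was at 1.16, 1.08 and 1.24 times in control, Mll3SI and Mll3/4SI but at 2.92 (2.30 to 3.73) times in Mll4SI, where it stood at 795 CPM in the smaller-cell and 272 in the larger-cell cluster. Rag1 in Mll4SI was below control within both clusters, at 33.7 against 70.0 CPM in the larger-cell and 89.8 against 198 CPM in the smaller-cell cluster.

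**Figure D3:**
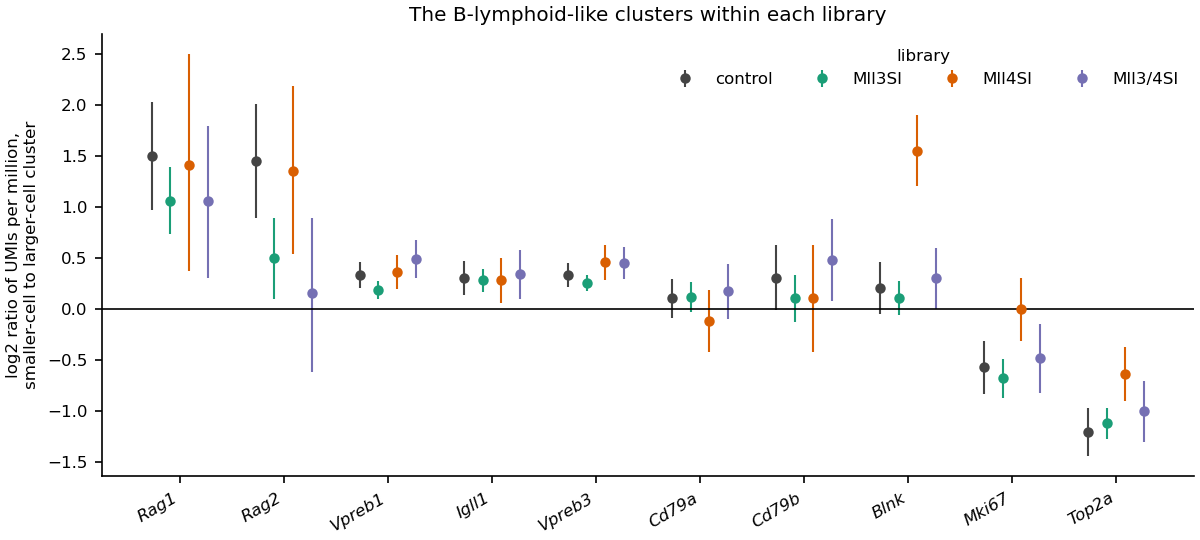
Log2 ratio of CPM between the smaller-cell and the larger-cell B-lymphoid-like cluster within each library (colours), for the 8 genes and the division genes Mki67 and Top2a. Bars are 95% intervals of the counts. All 4 Rag1 points lie above 0 with intervals clear of it, and all 4 Top2a points lie below 0. The 8 genes took no part in the clustering, but the division genes were not left out of it.

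In the stem cell and myeloid classes the 8 genes separated, with Cd79b well above Cd79a. In HSC/MPP-like cells (752, 794, 619 and 711 cells) Cd79b stood at 15.4, 14.1, 13.3 and 18.3 CPM and Cd79a at 0.394, 1.02, 0.0698 and 0.332 CPM. In monocyte-like cells Cd79b stood at 21.6, 20.7, 21.1 and 28.3 CPM. In granulocyte-like cells it stood at 6.54, 7.26, 4.06 and 5.57 CPM. The pair was not separated in a small unnamed cluster led by MHC class II genes (43, 23, 17 and 19 cells), where Cd79a had 40, 8, 21 and 0 UMIs and Cd79b 30, 7, 22 and 2. These UMIs lay in few cells, with Cd79a in 6, 2, 3 and 0 of them. In erythroid-like cells, taken as the level that free RNA gives, Cd79b stood at 2.29, 0.413, 1.69 and 4.76 CPM, from 9, 1, 3 and 8 UMIs. HSC/MPP-like Cd79b was 6.7 (3.48 to 14.8), 34.2 (6.07 to 1356), 7.88 (2.65 to 38.5) and 3.84 (1.92 to 8.99) times the erythroid-like level, so it was above that level in 4 of 4 libraries. The Mll3SI ratio rests on 1 erythroid-like UMI. In thinned cells Cd79b was detected in 5.72%, 4.04%, 2.27% and 4.94% of HSC/MPP-like and 0.820%, 0%, 1.92% and 2% of erythroid-like cells. Unthinned, the HSC/MPP-like shares were 28.6%, 21.7%, 26.8% and 30.4%.

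The split between the genes showed the same separation. Of the 34666 UMIs of the 8 genes in B-lymphoid-like cells, 31.0% were Vpreb3, 26.9% Vpreb1, 16.5% Igll1, 10.9% Cd79a, 7.70% Blnk, 4.16% Cd79b, 1.58% Rag1 and 1.38% Rag2. Of 1601 UMIs in HSC/MPP-like cells, 59.1% were Cd79b, 16.0% Vpreb1, 8.24% Rag2 and 7.75% Blnk. Cd79b took 55.1% of 3317 UMIs in granulocyte-like and 80.3% of 2062 UMIs in monocyte-like cells. For each Cd79a UMI there were 0.383 (0.361 to 0.408) Cd79b UMIs in B-lymphoid-like, 33.8 (23.2 to 51.1) in HSC/MPP-like, 10.3 (8.8 to 12) in granulocyte-like and 87.1 (55.6 to 145) in monocyte-like cells. Within single libraries the ratio ran from 0.328 to 0.431 in B-lymphoid-like and from 13.8 to 191 in HSC/MPP-like cells. The part of free RNA in the Cd79b level of these classes was not tested beyond the ratios to erythroid-like cells.

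**Figure D4:**
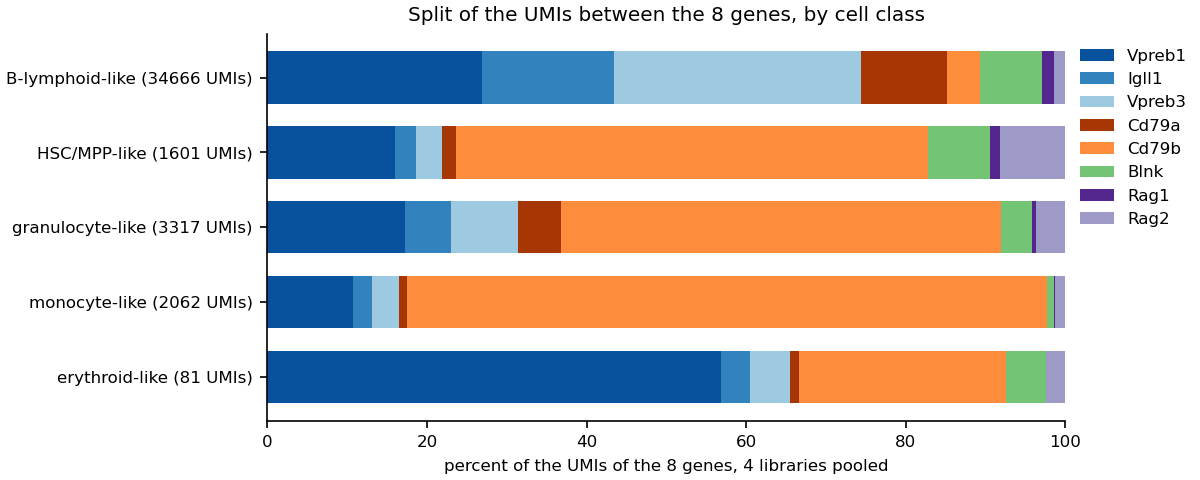
Share of the UMIs of the 8 genes that each gene (colours) takes in 5 cell classes, with the 4 libraries pooled. Cd79b takes 4.16% in B-lymphoid-like cells, 59.1% in HSC/MPP-like and 80.3% in monocyte-like cells, and Vpreb1 takes 56.8% of the 81 UMIs in erythroid-like cells.

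Vpreb1 in HSC/MPP-like cells was compared with its level in erythroid-like cells. HSC/MPP-like cells held 4.84, 6.27, 3.0 and 2.33 CPM and erythroid-like cells 3.82, 4.96, 3.39 and 7.73 CPM. The ratio was 1.27 (0.726 to 2.36), 1.27 (0.691 to 2.54), 0.887 (0.376 to 2.55) and 0.301 (0.155 to 0.620), so the interval included equality in control, Mll3SI and Mll4SI and lay below it in Mll3/4SI. In granulocyte-like cells the ratio was 0.532 (0.312 to 0.974), 0.738 (0.415 to 1.45), 0.311 (0.139 to 0.867) and 0.0880 (0.0470 to 0.177). The Vpreb1 to Igll1 ratio was 1.63 (1.58 to 1.69) in B-lymphoid-like cells, 6.10 (4.39 to 8.66) in HSC/MPP-like and 15.3 (4.93 to 77.1) in erythroid-like cells, where 46 UMIs of Vpreb1 and 3 of Igll1 were counted. Erythroid-like cells thus did not hold these genes in the ratio of B-lymphoid-like cells. Granulocyte-like Vpreb1 lay below the erythroid-like level in control, Mll4SI and Mll3/4SI. For Vpreb1 the erythroid-like level is therefore an uncertain measure of free RNA. Whether Vpreb1 in HSC/MPP-like cells exceeds free RNA was not tested. Vpreb1 in HSC/MPP-like cells stood at 0.621 (0.420 to 0.905) of control for the Mll4SI library and 0.481 (0.315 to 0.720) for Mll3/4SI.

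Rag2 needs a caution of annotation. The gene B230118H07Rik (chromosome 2, 101560781 to 101649532, minus strand) overlaps Rag2 on the opposite strand and holds the whole of Rag1 on its own strand. It had 0.201 UMIs per Rag2 UMI in B-lymphoid-like cells but 30.01 (25.2 to 36.0) in HSC/MPP-like cells, at 63.8, 70.0, 64.0 and 58.7 CPM. Rag2 stood at 1.69, 2.73, 2.23 and 1.99 CPM in HSC/MPP-like cells against 0.169, 0.887, 0 and 0.266 for Rag1. In HSC/MPP-like cells of Mll4SI Rag1 had 0 UMIs, for which the limit of 3 UMIs is 0.209 CPM and the exact upper limit 0.258 CPM. The strand setting of the counting was not given in the sources used here, so the low Rag values outside B-lymphoid-like cells are uncertain.

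Blnk differed between libraries in HSC/MPP-like cells. It stood at 1.01, 5.11, 0.279 and 1.79 CPM, from 18, 75, 4 and 27 UMIs. The Mll3SI library was 5.05 (2.99 to 8.98) times control and Mll4SI 0.276 (0.0679 to 0.838) times. Only Cd79b, Vpreb1, Rag2 and Blnk, 4 of the 8 members, had a mean of at least 1 CPM in this class. Of these 4, Blnk was past the fold as higher in Mll3SI (log2 ratio of CPM + 1 of 1.604), where 0.394% of 12689 genes were past it as higher and 0.355% as lower. In Mll4SI 0 of 4 were past it (1.72% higher and 1.12% lower), and in Mll3/4SI 0 of 4 (2.77% higher and 1.3% lower). Of the members below that mean, Igll1 stood at 2.18 CPM in Mll3SI against 0.394 in control and Vpreb3 at 2.39 against 0.675, and a single cell held 19 of the 32 Igll1 and 19 of the 35 Vpreb3 UMIs. The Cd79a interval included equality (0.997 to 7.53). The sum of the 8 was 24.5, 34.7, 19.1 and 25.4 CPM. In erythroid-like cells Blnk had 3, 0, 0 and 1 UMIs, and a count of 0 allows 1.24 CPM in Mll3SI and 1.69 in Mll4SI, so the Mll4SI level lies below what those cells can resolve.

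Few cells carried the Mll3SI excess. Of its 794 HSC/MPP-like cells, 24 had a Blnk UMI, and 55 of the 75 Blnk UMIs lay in 15 of those cells that also had UMIs of at least 2 B-lymphoid markers. Such marker-bearing cells numbered 33, 35, 11 and 13 in the HSC/MPP-like class of the 4 libraries. Cd72, one of these markers, made up 25.8 of their 43.1 CPM in control HSC/MPP-like cells. It stood at 11.0 CPM in Mll4SI and 9.57 in Mll3/4SI. A cell with Cd72 and any other marker is counted, so these cells are not shown to be of the B lineage. Of cells with a Blnk UMI 11, 19, 3 and 8 had Dntt, which encodes the enzyme that adds bases at recombination joints, and 3, 12, 0 and 2 had Ebf1. A single Mll3SI cell held 99 of the 509 UMIs of the 8 genes, with 33 of Vpreb1 and 19 of Igll1. Without the marker-bearing cells the sums were 22.8, 23.1, 18.8 and 24.8 CPM, and Blnk in Mll3SI stood at 1.43 against 0.652 CPM in control, a log2 ratio of CPM + 1 of 0.56. The excess differed between the hashtags, with Blnk at 6.81 against 0.726 CPM in Hashtag1 cells and 2.33 against 1.24 CPM in Hashtag2 cells, and the sum of the 8 at 34.5 against 22.5 and 21.4 against 26.99 CPM, so the Mll3SI sum was below control in Hashtag2 cells. Without the single highest cell of each library the log2 ratio of CPM + 1 of Blnk was 1.44. It was 0.98 with no doublets removed, a setting under which the control level was 3.07 CPM and the Mll3SI level 7.04. The part of mixed droplets in the Mll3SI excess was not tested beyond these values.

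**Figure D5:**
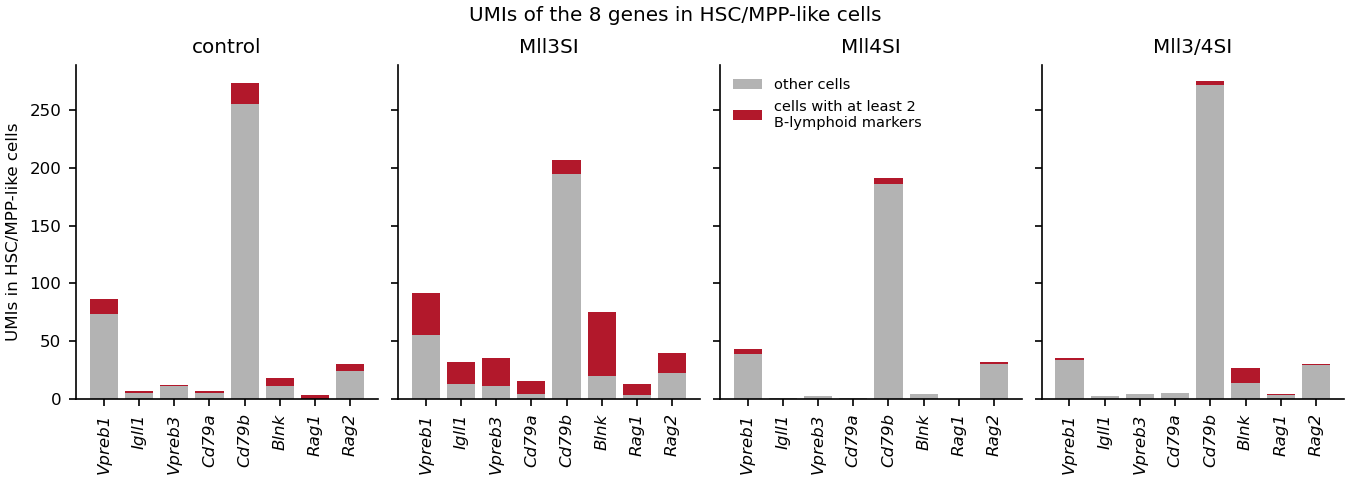
UMIs of each of the 8 genes in HSC/MPP-like cells of each library, with the part held by cells that had UMIs of at least 2 B-lymphoid markers in red. In Mll3SI 55 of 75 Blnk and 37 of 92 Vpreb1 UMIs lie in such cells, and 12 of 207 Cd79b UMIs do.

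Flt3, a receptor of lymphoid-primed progenitors, was used to divide the HSC/MPP-like class after thinning. Cells with a Flt3 UMI numbered 193, 158, 101 and 95. Their Blnk level was 3.56, 24.1, 0.954 and 8.41 CPM, and in cells without a Flt3 UMI it was 0.221, 1.08, 0.164 and 0.698 CPM. The values with a Flt3 UMI rest on 15, 62, 2 and 18 Blnk UMIs and those without on 3, 13, 2 and 9. Blnk was thus higher beside Flt3 in control, Mll3SI and Mll3/4SI, while in Mll4SI the intervals overlapped (0.115 to 3.44 and 0.0198 to 0.591 CPM). Rag2 stood at 5.46, 10.1, 4.29 and 3.74 CPM with and 0.516, 1.16, 1.88 and 1.71 CPM without a Flt3 UMI, with overlapping intervals in Mll4SI and Mll3/4SI. Cd79b stood at 20.2, 19.4, 14.3 and 17.3 against 13.9, 13, 13.1 and 18.5 CPM. A separate cluster led by Flt3 and Irf8, left unnamed, held 174, 197, 135 and 79 cells and had 4.07, 7.56, 4.56 and 8.35 CPM of Blnk.

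The HSC/MPP-like class was not the same set of clusters in every library. One of its 4 clusters held 424 cells, 423 of them from Mll3/4SI. Over the clusters shared by all libraries, 288 Mll3/4SI cells remained, with 26 of the 27 Blnk UMIs. These 26 UMIs lay in 9 cells, and 1 cell held 8 of them. In the whole class 13 of the 27 lay in 3 cells with UMIs of at least 2 B-lymphoid markers. The log2 ratio of the whole class (0.47) ran from -0.98 to 1.10 over 12 other settings of the processing. In the shared clusters Blnk stood at 3.31 CPM, 3.27 (1.73 to 6.34) times control. It was past the fold as higher there (log2 ratio of CPM + 1 of 1.10, with 1.07% of 12617 genes past it as higher and 0.674% as lower). Over the same clusters Blnk was again the 1 member past it in Mll3SI (0.388% higher and 0.357% lower), and 0 of 4 were past it in Mll4SI (1.66% higher and 1.13% lower). Cell clusters and library cannot be told apart in that comparison.

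Granulocyte-like cells (4350, 5210, 8044 and 3812 cells) gave the same members at trace levels. Their sum was 10.7, 16.8, 7.08 and 8.04 CPM, and only Cd79b and Vpreb1 had a mean of at least 1 CPM. Of those 2 genes 0 were past the fold in Mll3SI (0.237% higher and 0.308% lower of 11379 genes), 0 in Mll4SI (1.16% and 1.14%) and 0 in Mll3/4SI (0.844% and 1.85%). In Mll3SI the intervals of Vpreb1, Vpreb3, Igll1, Blnk and Rag2 lay above control. Of these genes only Vpreb1 reached the mean of 1 CPM. The share of all genes with such intervals is not given here, so this is not a result about the members. Igll1 stood at 1.58 against 0.460 CPM and Vpreb1 at 3.66 against 2.03 CPM. The intervals of Cd79a, Cd79b and Rag1 included equality. The share of all gene UMIs that came from B-lymphoid-like cells was 0.904%, 1.93%, 0.442% and 0.474%, also highest in Mll3SI. Cd79a stood at 0.514, 0.660, 0.615 and 0.403 CPM, with Mll3SI at 1.28 (0.821 to 2.02) and Mll4SI at 1.20 (0.787 to 1.84) times control. Whether the members follow that share was not tested. Single granulocyte-like cells with 55 UMIs (Mll3SI) and 78 UMIs (Mll4SI) of the 8 genes were also present. The part of free RNA and of mixed droplets in these traces was not tested.

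Seen from the genes, B-lymphoid-like cells held over 50% of the UMIs of each member in every library except for Cd79b and Rag2. They held 91.9%, 90.4%, 89.7% and 91.8% of Rag1 UMIs, 91.5%, 94.8%, 82.4% and 92.3% of Cd79a UMIs, and 85.9%, 90.05%, 84.5% and 83.9% of Vpreb1 UMIs over all kept cells. Of Rag2 UMIs they held 65.5%, 67.7%, 36.6% and 46.7%, and in Mll4SI another 26.1% lay in granulocyte-like and 20.9% in HSC/MPP-like cells. Of Cd79b UMIs they held 20.7%, 33.9%, 10.3% and 10.7%. In Mll3/4SI 43.0% of Cd79b UMIs came from 1484 cells of unnamed clusters led by Cpa3 that were nearly confined to that library, with 1 such cell in Mll4SI.

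The genes of the wider pathway in B-lymphoid-like cells were described from lists drawn up with earlier results of these data known. Of 25 genes of pre-B receptor signalling, 0 were past the fold as higher and 1 (Cd22) as lower in Mll3SI, and 1 and 1 (Blk and Cd22) in Mll4SI. In Mll3/4SI 0 were past it as higher, and Cd22 was past it as lower. Cd22 had at most 6 UMIs in any library and was named after its values were seen. Blk, a kinase of B cells, stood at 37.0 against 16.6 CPM in Mll4SI (log2 ratio of CPM + 1 of 1.11). The list medians were -0.07, -0.16 and 0.05. Of 17 genes of V(D)J joining, 0 and 0, 0 and 1, and 1 and 2 were past the fold, with medians of -0.05, -0.07 and -0.08. Dclre1c (Artemis, which opens hairpin ends) stood at 13.9 against 28.7 CPM in Mll4SI. Xrcc4, a ligase partner, stood at 126 against 59.2 CPM in Mll3/4SI, while Xrcc5 (Ku80) stood at 13.4 against 28.7 and Paxx at 5.95 against 14.8 CPM. Of 15 transcription regulators 0 and 1 (Ikzf3), 0 and 2 (Ikzf3 and Gfi1) and 1 (Ikzf3) and 1 (Gfi1) were past the fold, with medians of -0.11, -0.11 and 0.15. Ikzf3, which encodes Aiolos, had 1, 0 and 9 UMIs against 3 in control and was named after its values were seen. Gfi1, a repressor of blood cells, stood at 9.24 CPM in Mll4SI and 10.4 in Mll3/4SI against 22.6 in control. The share of all genes past the fold ran from 3.63% to 8.54% in these comparisons.

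Of 6 measured immunoglobulin constant genes 4 were past the fold as higher in Mll3/4SI, with a median of 1.997, where 8.18% of all genes were. Igkc, the κ light chain, stood at 34.2 against 4.36 CPM, and 21 of its 23 UMIs came from 1 cell. The other 3 (Iglc1, Iglc2 and Iglc3, named after their values were seen) had 5, 3 and 3 UMIs. With 3 UMIs, which is 4.46 CPM in this library, a gene reaches the mean of 1 CPM from this library alone. The 4 calls and the median therefore rest on few UMIs and on 1 cell. In Mll4SI Ighd stood at 4.62 against 13.9 CPM, the 1 gene past the fold as lower, and in Mll3SI 0 of 6 were past it. Ighm, the μ heavy chain that pairs with the surrogate light chain, stood at 604, 699, 619 and 845 CPM in B-lymphoid-like cells and was not past the fold. Interferon genes were a reference list, of whose 5 measured genes 0 were past the fold in Mll3SI, 1 as higher and 2 as lower in Mll4SI, and 2 as higher and 0 as lower in Mll3/4SI, with medians of -0.04, -0.03 and 0.76. Ifi27l2a stood at 401 against 64.5 CPM in Mll3/4SI B-lymphoid-like cells, with a UMI in 28 of 38 cells against 24 of 65. Isg15 stood at 41.6 against 6.97 CPM there and at 20.02 CPM in Mll4SI.

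In HSC/MPP-like cells Dntt stood at 24.4 CPM in Mll4SI against 52.6 in control (log2 ratio of CPM + 1 of -1.07), the 1 of 17 V(D)J joining genes past the fold in that class and library. In Mll3SI and Mll3/4SI 0 of 17 were past it. The list medians were 0.06, -0.03 and -0.04. Among 12689 genes of this class, Mll4SI had 1.72% past the fold as higher against 1.12% as lower. The matching shares were 2.77% and 1.3% for Mll3/4SI, then 0.394% and 0.355% for Mll3SI. Of 21 measured signalling genes 0 were past the fold in Mll3SI, and 1 as higher and 1 as lower in Mll4SI and in Mll3/4SI, with medians of 0.01, 0.01 and -0.11. Cd72, a B cell surface receptor, stood at 11.03 CPM in Mll4SI and 9.57 in Mll3/4SI against 25.8 in control. Prkcb, a kinase, stood at 27.9 against 10.3 CPM in Mll4SI, and Fyn at 125 against 56.8 CPM in Mll3/4SI. Over the clusters shared by all libraries 0 of 21 were past the fold in Mll3/4SI. Of 11 regulators 0, 2 (Id2 and Klf2) and 1 (Klf2) were past it as higher and 0 as lower, with Klf2 at 3.7 CPM in Mll4SI and 4.99 in Mll3/4SI against 1.12 in control. Id2 and Klf2 fell short of the mean of 10 CPM set for naming and were named after their values were seen. Ighm was the only constant gene with a mean of at least 1 CPM in this class and was not past the fold. Interferon genes were past the fold as higher for 5 of 6 in Mll3/4SI (median 2.29) and for 0 of 6 in Mll3SI and Mll4SI (medians 0.07 and -0.19).

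Genes whose pattern was most like that of the members were sought over 22 sums of a class in a library, each of at least 50 cells, of which 2 were B-lymphoid-like sums (control and Mll3SI). The likeness was Pearson's r with the mean log2 value of CPM + 1 of the 8 members. The 5 genes outside the members with the highest r were Vpreb2 (0.991), Slamf7 (0.990), Gm12158 (0.990), Gfra1 (0.990) and Chst3 (0.989). The members' own values ran from 0.832 for Cd79b to 0.991. Since the points share libraries and only 2 are B-lymphoid-like, r is given as a description. Gfra1 stood at 198 and 235 CPM in those 2 sums and at most 2.32 CPM in any other.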

How the data were processed

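RNA and antibody tags of CD45.2+ Kit+ bone marrow cells were measured in 4 libraries, grouped by sample title. Per the submitters' processing notes, the deposited counts (UMIs per feature and cell barcode, not normalized) were made with Cell Ranger 7.1.0 on mm10. The annotation, cell calling and strand setting are not given in the sources used here.

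From these counts, cells with at least 500 genes, 1000 UMIs and at most 10% mitochondrial UMIs were kept. The cells with the highest Scrublet scores were removed as doublets, at 0.8% of cells for every 1000 cells of a library. The 4 libraries were clustered together (2000 variable genes without the 8 members, 30 principal components, 15 neighbours, Leiden resolution 1; scanpy 1.11.5, leidenalg 0.10.2, Python 3.11.15). A cluster was named where at least 3 markers of a class had a log2 fold of at least 1 over the other cells and that class led the next by 2 markers. A monocyte-like cluster led by Flt3 was left unnamed after it was seen. UMIs were summed per class and library and scaled to CPM. The script was tested on simulated data.

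Ratios used CPM without an added value for intervals and CPM + 1 for log2 values. Intervals are 95% exact (Poisson for levels, Clopper-Pearson for shares, conditional binomial for ratios). A count of 0 is given the limit of 3 UMIs, or of 3 cells for a share, which is narrower than the exact 95% interval. With 1 library per group there was no test and no p-value. Named beside the members were list genes with a mean of at least 10 CPM past the fold, and the 5 genes most like the members in pattern with a mean of at least 5 CPM. The lists were pre-B receptor signalling, V(D)J joining, immunoglobulin constant genes, regulators and interferon genes. The members and lists were chosen with earlier results of these data known. Alternatives covered scaling, thinning to 3000 or 1500 UMIs, doublet and hashtag filters, clustering and minimum levels. A gene of the signalling list is not reported here.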

Additional observations from a re-analysis of the deposited data

How the results depend on the processing

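The sum of the 8 genes was past the fold in 0 of the 6 comparisons with control, under any of 14 alternatives each. Of 288 values of single members in B-lymphoid-like cells 271 kept their sign, as did 254 of 288 in HSC/MPP-like cells, where 17 passed the fold although the reported value did not. The log2 ratio of the B-lymphoid-like sum, 0.04 for Mll3SI, -0.23 for Mll4SI and -0.02 for Mll3/4SI, moved beyond its counting interval as follows, and the cause was not tested. For Mll3SI it was -0.0015 after thinning, -0.0082 without doublet removal and -0.0287 in the smaller-cell cluster. For Mll4SI it was -0.17 after thinning, -0.296 in the larger-cell cluster, -0.303 in Hashtag1 and -0.165 in Hashtag2 cells. For Mll3/4SI it was 0.12 after thinning, 0.0689 with classes from single cells, 0.0472 in the smaller-cell cluster and 0.0351 in Hashtag2 cells. The HSC/MPP-like sum, 0.49 for Mll3SI, was 0.25 after thinning, 0.17 without double-hashtag cells, 0.78 with classes from single cells, 0.23 without the highest cells, 0.0224 without cells of at least 2 B-lymphoid markers and -0.32 in Hashtag2 cells. For Mll4SI (-0.34) it was -0.86 after thinning and -0.93 without doublet removal. For Mll3/4SI (0.05) it was -0.17 after thinning, -0.51 without doublet removal, -0.177 with classes from single cells and -0.182 in Hashtag2 cells. Leaving out cells or clusters by marker UMIs, highest cell or cluster was chosen after seeing the data.

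The share of all genes past the fold in either direction depended on the value added and on the minimum level. In B-lymphoid-like cells it was 7.54%, 16.9% and 16.2% for Mll3SI, Mll4SI and Mll3/4SI as reported. It was 0.338%, 1.29% and 1.44% with 10 CPM added, and 1.59%, 5.83% and 5.75% with a mean of at least 10 CPM. In HSC/MPP-like cells it was 0.749%, 2.84% and 4.07%, and 0.110%, 0.418% and 0.954% with 10 CPM added. With a mean of at least 10 CPM it was 0.322%, 1.11% and 1.94% there. Depth limits Rag1 and Rag2, which rest on 35 to 320 UMIs per library in B-lymphoid-like cells, and every member but Cd79b elsewhere. No paired analysis was possible because each group has 1 library and its replicate number comes from accession order.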
